A study of Mus musculus with 69 samples.

Results

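The genes described here are the collagen alpha chain genes of the mouse, taken as every row of the count table whose symbol reads Col, a number, a and a number. The rule found 44 genes among 55367 symbols, and every one of the 44 had counts. The data are bulk RNA sequencing of 69 libraries, 3 for each of 23 conditions, from E14tg2A mouse embryonic stem (mES) cells and from gastruloids, aggregates of mES cells that elongate and pattern like part of the early embryo. The WT-mCherry clone carries H2B-mCherry and the WT-emiRFP clone carries H2B-emiRFP670. The p53KO-emiRFP line is 1 clone made from WT-emiRFP, with a homozygous frameshift in Trp53 and selected with Nutlin-3a, so clone and genotype cannot be told apart. Each clone was sequenced as mES cells at 0 h. Mosaic gastruloids of WT-mCherry with WT-emiRFP cells, or of WT-mCherry with p53KO-emiRFP cells, were taken at 48, 72, 96, 120 and 144 h after aggregation, and the cells of each colour were sorted. The p53KO-emiRFP cells were seeded in smaller number than the WT-emiRFP cells, so that the genotype of the neighbours and their number cannot be told apart. Gastruloids kept beyond 48 h received a pulse of the Wnt agonist CHIR99021 between 48 and 72 h, so that the step between these times and the pulse cannot be told apart. Purity was not checked after the sort.

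Collagens are triple helices of 3 alpha chains that are folded in the endoplasmic reticulum, secreted, trimmed and cross-linked outside the cell. The fibrillar collagens (types I, II, III, V and XI among them) build the fibrils of mesenchyme and cartilage, and the FACIT collagens, among them types IX, XII and XIV, sit on the surface of those fibrils. Type IV collagen forms the network of every basement membrane, and the multiplexins, types XV and XVIII, are proteoglycans of basement membrane zones. Type VI makes beaded filaments, type VII anchors epithelia, type VIII makes short-chain networks, and the types XIII, XVII, XXIII and XXV span the cell membrane. In the early embryo, basement membrane collagens are made by endoderm and epithelia, and fibrillar collagens by the notochord, the sclerotome and mesenchyme.

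Library totals ran from 26722541 to 72981570 counts, with a median of 53098728, and the 44 genes held 0.062% to 0.268% of a library. Levels are given as normalized counts, the counts divided by the library's size factor, and levels of different genes are compared only per kb of exon. Trp53 had 13902 to 27511 normalized counts in WT libraries and 1506 to 2589 in p53KO libraries. The 6 pluripotency markers summed to 179350 to 219180 normalized counts in the mES cell libraries, and none was at 0. Of the 44 genes, 36 reached a mean of 100 normalized counts in at least 1 condition and 13 reached 1000. Col4a3, Col4a4, Col6a3, Col6a6, Col8a1, Col10a1, Col19a1 and Col28a1 stayed under 100 in all 23. Col4a3, Col10a1 and Col19a1 stayed too low to be tested in any comparison, and 37 to 41 genes were tested in each.

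Col18a1, which encodes the proteoglycan from which endostatin is cut, reached the highest condition mean per kb of the 44 genes, 6218 normalized counts per kb in WT-emiRFP cells at 144 h. Col4a1 (4411) and Col4a2 (2459) followed, both in WT-mCherry cells beside p53KO cells at 144 h. In WT-emiRFP mES cells Col18a1 held 63.9% to 65.9% of the summed counts per kb of the 44 genes, and at 48 h 79.5% to 80.2%. At 96 h the share was 34.1% to 36.6%, and at 144 h it was 47.6% to 57.5%. Type IV collagen genes together moved the other way, from 7.86% ± 0.506 (SD, n = 3) at 48 h to 33.8% ± 3.15 at 96 h and 20.6% ± 6.10 at 144 h. In p53KO-emiRFP cells the multiplexin share was 79.8% ± 0.392 at 48 h and 28.4% ± 3.26 at 144 h, where WT-emiRFP cells had 52.4% ± 4.99. The fibrillar share at 144 h was 23.4% ± 0.993 in p53KO-emiRFP and 9.46% ± 0.900 in WT-emiRFP cells, with no overlap between the 3 libraries of each. These shares were not tested.

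**Figure D1:**
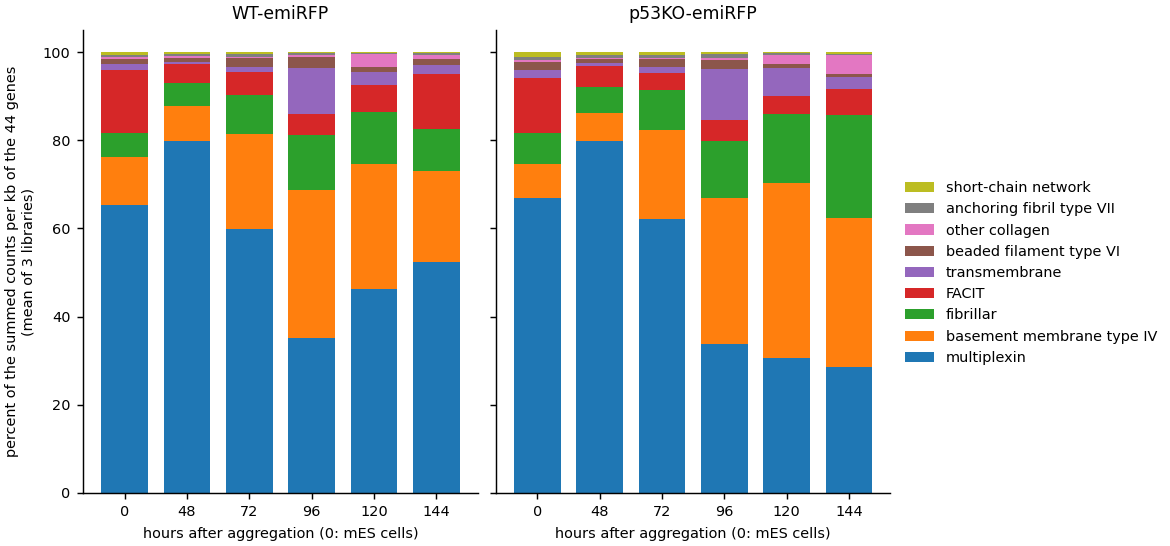
Share of each collagen class in the summed normalized counts per kb of exon of the 44 genes (y axis, percent), by hours after aggregation (x axis), in WT-emiRFP cells on the left and p53KO-emiRFP cells on the right. Each bar is the mean of 3 libraries: the multiplexin share falls to 35.0% at 96 h in WT-emiRFP cells and is 52.4% at 144 h, whereas in p53KO-emiRFP cells it is 28.4% at 144 h.

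The time course asked how collagen expression developed in WT cells, taken as the mean of the 3 sorted WT populations (at 0 h, of both WT clones). These populations come from the same 3 experiments, and the 2 populations of WT + WT gastruloids were sorted from the same gastruloids. The fit treated all libraries as independent, so the SEs and p-values of the time steps may be too small. Between 33 and 36 of 41 collagen genes passed the test at each step, against a background that was itself high. From 0 to 48 h, 36 of 41 passed (13 higher and 23 lower, with 70.3% of all genes called, 33% higher and 37.2% lower). From 48 to 72 h, 35 passed (23 higher and 12 lower, against 66.8% of all genes, 32.8% higher and 34% lower), and from 72 to 96 h, 33 passed (26 higher and 7 lower, against 58.7%, 30.5% higher and 28.2% lower). From 96 to 120 h, 33 passed (21 higher and 12 lower, against 56.9%, 28.9% higher and 28% lower), and from 120 to 144 h, 36 passed (23 higher and 13 lower, against 55.5%, 28.7% higher and 26.8% lower). Over all 23 conditions, p53KO cells included, the highest mean of a gene lay at 144 h for 22 of the 44 genes, while 96 h held 8, 0 h held 6, 120 h held 5, 72 h held 2 and 48 h held 1. These are bulk samples, so that fewer cells of a type and less RNA per cell cannot be told apart.

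In WT cells the first step out of the mES cell state was led by losses. The mES cells grew in serum with LIF and the gastruloids in N2B27 medium. Medium, aggregation and time thus cannot be told apart in this step. Col13a1, a transmembrane collagen of cell adhesion sites, fell by 3.57 ± 0.12 on the log2 scale (SE, adjusted p = 8.72e-33, edgeR's quasi-likelihood test). Col20a1 fell by 2.91 ± 0.16, Col5a3 by 2.89 ± 0.11 and Col9a2, a chain of the type IX collagen on cartilage fibrils, by 2.71 ± 0.07. The largest rises among genes with at least 100 normalized counts were smaller, 0.77 ± 0.11 for Col6a2 and 0.43 ± 0.10 for Col2a1. Between 48 and 72 h Col4a6 rose by 3.42 ± 0.14, the transmembrane Col23a1 by 2.54 ± 0.10, the fibrillar Col11a1 by 2.53 ± 0.11 and Col4a5, the partner of Col4a6 on the X chromosome, by 2.15 ± 0.11. Col2a1 fell in that step by 1.07 ± 0.09. Marker sums moved as well, and their part was not tested. In WT libraries the pluripotency sum was 208750 to 219180 normalized counts at 0 h and 38170 to 48747 at 48 h. The endoderm sum was 7291 to 9272, then 14823 to 15861. For the notochord list the sum was 362 to 475 at 48 h and 36784 to 59267 at 72 h. That of neural progenitors was 8350 to 9824, then 4180 to 7260.

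At 96 h all 4 transmembrane collagen genes rose (30.5% of all genes did), with a median log2 change of 2.74 against 0.01 for all genes. In the WT-emiRFP libraries Col13a1 went from 56.1, 38.5 and 61.1 normalized counts (72 h) to 1920, 2347 and 1863 (96 h), a rise of 5.39 ± 0.10 on the log2 scale over all WT cells (adjusted p = 1.19e-44). It then fell again, by 1.18 ± 0.08 to 120 h and by 0.81 ± 0.08 to 144 h, so that its high level was a peak of 96 h. Col25a1 had a rise of 3.62 ± 0.14 to 96 h and a fall of 2.56 ± 0.12 to 120 h. The fibrillar Col24a1 rose by 2.76 ± 0.13 and fell by 1.57 ± 0.12 in the same steps. Col12a1, a FACIT collagen of tendon and other dense tissue, rose by 3.18 ± 0.16 to 96 h. Col1a2, the alpha 2 chain of type I collagen, rose by 2.72 ± 0.14 to 96 h and fell by 1.29 ± 0.12 to 120 h. Of the marker lists, all 7 presomitic markers rose in the step to 96 h (sums of 909 to 1246 normalized counts in WT libraries of 72 h, then 36479 to 59428), 6 of 7 parietal endoderm markers rose (833 to 1156, then 4621 to 6940) and 5 of 6 neural progenitor markers rose (4180 to 7260, then 6928 to 8611). Of 9 somite and sclerotome markers 4 rose and 2 fell (299 to 682, then 7121 to 13078), and of 6 notochord markers 3 rose and 3 fell (36784 to 59267, then 21943 to 36443). The notochord list holds T (Brachyury), which the paper links to the posterior primitive streak. At any time its sum is therefore not particular to the notochord. Whether the markers had a part in the collagen changes was not tested.

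In the step to 120 h Col26a1, Col9a2 and Col2a1 had the largest rises among the named genes. Col2a1, the chain of type II collagen, went from 822, 910 and 1216 normalized counts (WT-emiRFP, 96 h) to 4916, 4445 and 5391 (120 h), and rose by 2.44 ± 0.08 over all WT cells. Col26a1 rose by 4.16 ± 0.12, from 131 ± 20.4 (SD, 9 libraries) to 2344 ± 429. Col9a2 rose by 2.59 ± 0.07 to 120 h and by a further 1.58 ± 0.06 to 144 h, when it reached 4162 ± 678 normalized counts. Other chains of cartilage collagens differed: Col9a1 rose by 1.47 ± 0.12, Col9a3 fell by 0.46 ± 0.08, and Col11a1 (0.18 ± 0.09) and Col11a2 (0.15 ± 0.10) were not called. Col1a1 rose by 1.91 ± 0.13 to 120 h while Col1a2 fell. In this step 8 of 9 somite and sclerotome markers rose and 1 fell (13366 to 27621 normalized counts in WT libraries of 120 h), 1 of 7 presomitic markers rose and 6 fell (6196 to 27087), and 4 of 6 notochord markers fell (1684 to 5245), with their part not tested. The sums of myogenic (208 to 353, then 1943 to 3328) and endothelial markers (1405 to 2103, then 3018 to 5885) rose too. So did that of neural progenitors (6928 to 8611, then 9980 to 14878), and their part was not tested either.

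At 144 h Col3a1, the chain of type III collagen in loose and vascular connective tissue, rose by 3.37 ± 0.13. The 9 WT libraries had 69.8 to 133 normalized counts of Col3a1 at 120 h and 512 to 2399 at 144 h. The multiplexin Col15a1 rose by 2.35 ± 0.12 and Col8a2 by 1.46 ± 0.11. Col4a6 fell by 1.58 ± 0.09, Col23a1 by 0.83 ± 0.07 and Col26a1 by 0.75 ± 0.10. For Col26a1 the mean normalized count of WT-emiRFP cells went from 2611 (120 h) to 925 (144 h), that of their WT-mCherry partners from 2324 to 2248, and that of the WT-mCherry partners of p53KO cells from 2097 to 1288. Col18a1 fell by 0.64 ± 0.04 to 72 h and by 0.67 ± 0.04 to 96 h, reached 13468, 14305 and 13960 normalized counts in WT-emiRFP cells there, and stood at 44644, 43388 and 42929 at 144 h. All 3 WT-emiRFP libraries of 144 h were above all of 0 h, which had 35386, 31831 and 31164. Over all WT cells Col1a1 (0.71 ± 0.11), Col1a2 (0.71 ± 0.13) and Col2a1 (0.52 ± 0.08) rose to 144 h. In the WT-emiRFP cells alone, the changes of Col1a1 (0.13, adjusted p = 0.66), Col1a2 (0.16, 0.62) and Col2a1 (0.12, 0.53) did not pass the test. Of the marker lists, all 7 presomitic markers fell in this step (sums of 6196 to 27087 normalized counts at 120 h and 1873 to 3897 at 144 h), all 9 tested endoderm markers rose (6162 to 10204, then 9678 to 23308) and 7 of 8 endothelial markers rose (3018 to 5885, then 6142 to 8490). Of 9 somite and sclerotome markers 3 rose and 5 fell (13366 to 27621, then 4021 to 11051), and of 6 notochord markers 1 rose and 3 fell (1684 to 5245, then 248 to 977). Their part in the collagen changes was not tested.

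**Figure D2:**
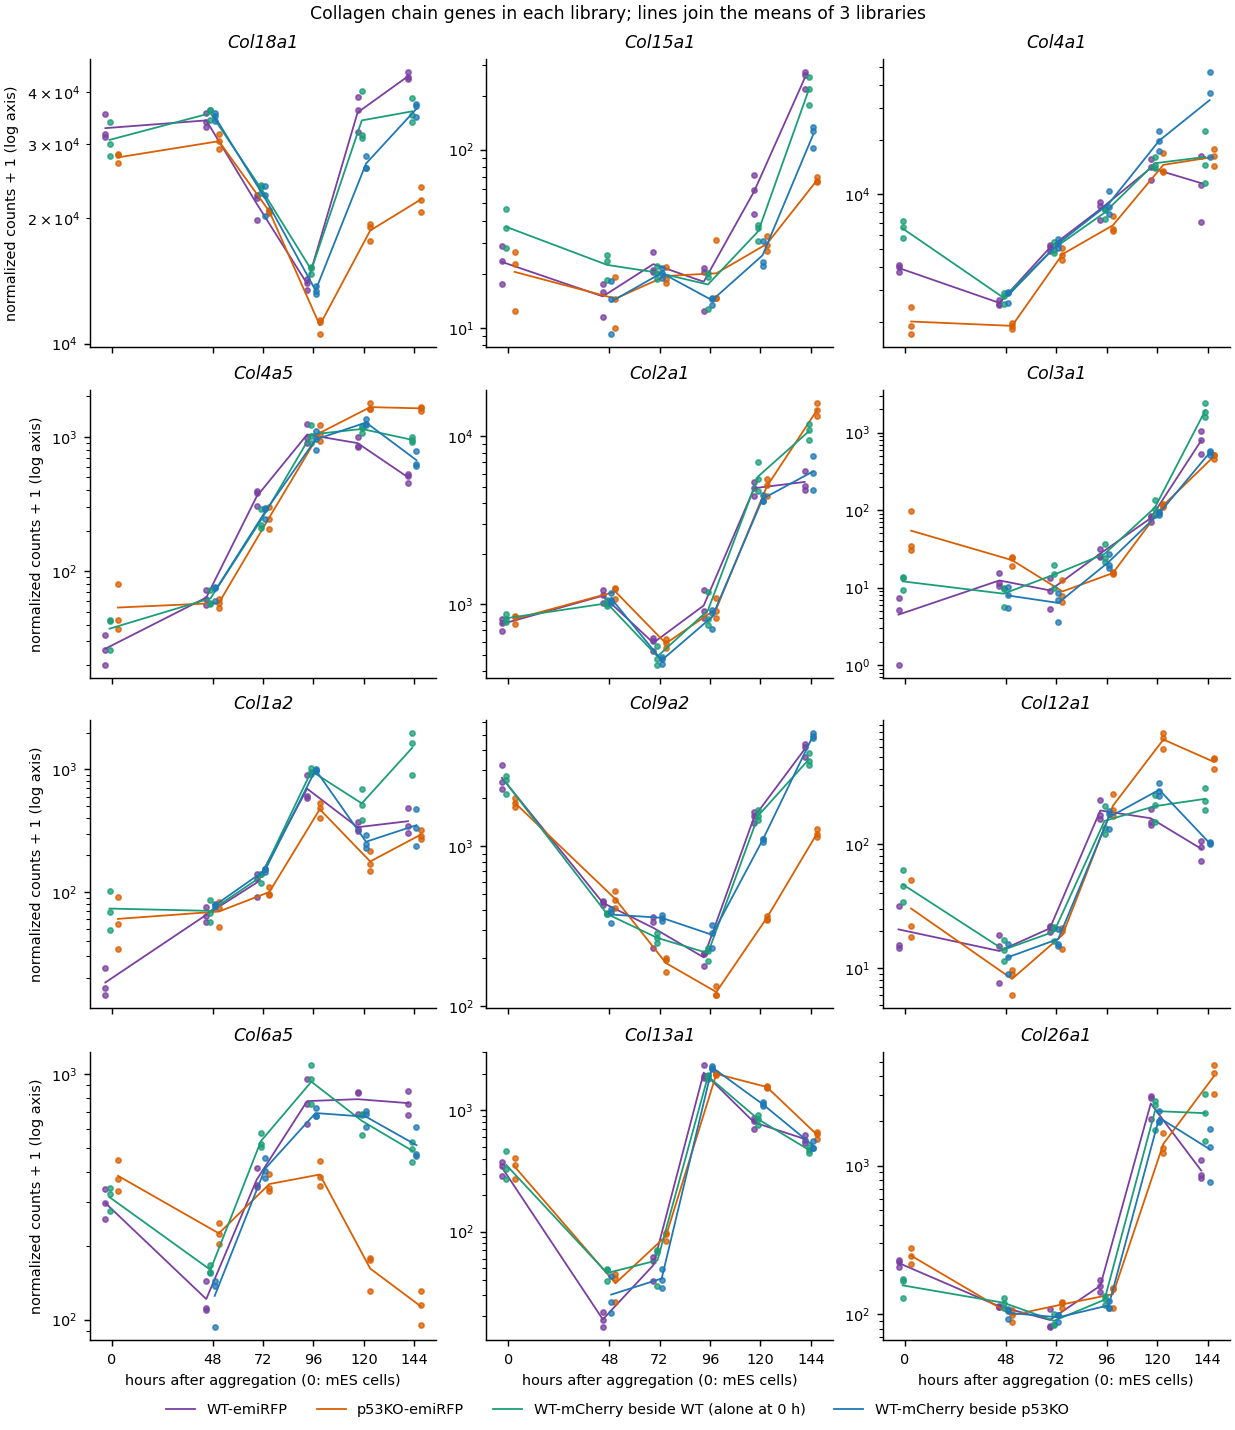
Normalized counts plus 1 (y axis, log scale) of 12 collagen genes by hours after aggregation (x axis), with 1 point per library and lines joining the means of 3 libraries, for WT-emiRFP, p53KO-emiRFP and WT-mCherry cells beside either neighbour. Col13a1 peaks at 96 h in every population, Col3a1 rises between 120 and 144 h, and the p53KO-emiRFP points lie below the WT-emiRFP points at 144 h for Col18a1, Col9a2 and Col6a5 and above them for Col2a1, Col12a1 and Col26a1.

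Other genes of collagen biosynthesis are given from lists of the pathway, between 120 and 144 h in WT cells, a step in which 28.7% of all genes rose and 26.8% fell. Of 17 basement membrane partners, 13 rose and 1 fell, with a median log2 change of 0.36 against 0.01 for all genes. They included the laminin chain gene Lama4 (1.35 ± 0.11) and Sparc (1.28 ± 0.12), whose product binds collagen, and the 1 that fell was Lama5 (-0.17 ± 0.06). Of 20 enzymes and chaperones of procollagen folding, 9 rose and 6 fell, with a rise of P4ha1 (0.56 ± 0.05), a prolyl 4-hydroxylase subunit, and a fall of Serpinh1 (-0.50 ± 0.07), the collagen chaperone Hsp47. Of 13 genes of propeptide processing and cross-linking, 4 rose and 4 fell, with Pcolce, an enhancer of the C-proteinase, at 1.40 ± 0.08 and Bmp1, the C-proteinase itself, at -0.47 ± 0.08. Of 10 receptors, 3 rose and 2 fell, with Ddr2 at 1.67 ± 0.11 and Itga1 at -1.09 ± 0.12. Of 10 proteases and inhibitors, 3 rose and 5 fell, and of 10 transcription factors, 4 rose and 3 fell, with Sox9 at 1.43 ± 0.08 and Twist1 at -0.65 ± 0.08.

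The type IV genes lie in head-to-head pairs, each pair around a shared promoter region, and the promoters of the 2 expressed pairs are shown because the members of each pair moved together. The windows are from RefSeq on GRCm38.p6 and run from 250 bases before to 50 bases after the start of transcription. Capitals mark the letters GGGCGG and CCAAT on either strand.
Col4a1, chr8:11312777-11313076, minus strand: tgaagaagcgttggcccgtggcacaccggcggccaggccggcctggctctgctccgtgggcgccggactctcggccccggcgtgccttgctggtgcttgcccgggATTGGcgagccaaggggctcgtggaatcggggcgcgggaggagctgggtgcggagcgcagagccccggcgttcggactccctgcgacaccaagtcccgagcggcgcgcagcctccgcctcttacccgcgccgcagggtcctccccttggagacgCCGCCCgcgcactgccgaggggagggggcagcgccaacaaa
Col4a2, chr8:11312555-11312854, plus strand: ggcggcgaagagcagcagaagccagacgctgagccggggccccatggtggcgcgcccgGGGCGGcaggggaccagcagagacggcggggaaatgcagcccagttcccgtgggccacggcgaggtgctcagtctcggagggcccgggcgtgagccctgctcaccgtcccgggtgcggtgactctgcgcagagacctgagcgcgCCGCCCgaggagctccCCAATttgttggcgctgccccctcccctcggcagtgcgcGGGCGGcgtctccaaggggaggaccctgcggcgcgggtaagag
Col4a5, chrX:141475169-141475468, plus strand: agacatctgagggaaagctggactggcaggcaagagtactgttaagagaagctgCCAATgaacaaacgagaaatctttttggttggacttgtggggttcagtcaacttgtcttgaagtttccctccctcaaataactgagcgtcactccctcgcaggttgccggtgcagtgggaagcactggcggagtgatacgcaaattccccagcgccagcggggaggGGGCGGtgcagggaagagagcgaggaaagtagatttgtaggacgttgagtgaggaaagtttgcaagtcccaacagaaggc
Col4a6, chrX:141474027-141474326, minus strand: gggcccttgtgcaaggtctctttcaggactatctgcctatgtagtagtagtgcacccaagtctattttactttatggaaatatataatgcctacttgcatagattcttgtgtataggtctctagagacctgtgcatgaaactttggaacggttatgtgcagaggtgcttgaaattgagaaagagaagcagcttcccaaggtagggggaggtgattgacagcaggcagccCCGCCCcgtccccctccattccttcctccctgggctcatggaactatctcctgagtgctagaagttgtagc
By the Gencode annotation the starts of Col4a1 and Col4a2 are 21 bases apart on opposite strands of chromosome 8, and their RefSeq windows share 78 bases. The Gencode starts of Col4a5 and Col4a6 are 1309 bases apart, the RefSeq start of Col4a5 is not the same base, and the windows of this pair share none. The third pair, Col4a3 and Col4a4 on chromosome 1, has its Gencode starts 72 bases apart and stayed under 100 normalized counts. The GC content was 74% for Col4a1, 73.7% for Col4a2, 52.7% for Col4a5 and 48.3% for Col4a6, where the median of all 32851 windows was 52.7%.

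Col4a1 and Col4a2, the main chains of basement membranes, had a Pearson r of 0.990 over the means of the 23 conditions, and Col4a5 and Col4a6 one of 0.981. These are descriptions over conditions that share clones and experiments. The next closest pairs were Col4a5 with Col11a2 (0.976) and Col4a5 with Col23a1 (0.963), and Col2a1 with Col26a1 had 0.948. Per kb, Col4a1 stood at 1.57 ± 0.0764 times the level of Col4a2 in p53KO-emiRFP mES cells and at 2.98 ± 0.243 times in p53KO-emiRFP cells at 48 h, the extremes among the p53KO-emiRFP conditions. In WT-emiRFP cells the ratio was 2.72 ± 0.182 at 48 h and 1.74 ± 0.0236 at 144 h. The ratio of Col4a5 to Col4a6 was 2.19 ± 0.127 at 96 h and 4.79 ± 0.975 at 144 h in WT-emiRFP cells. The ratio of Col1a1 to Col1a2, which form type I collagen together but lie on different chromosomes, was 7.66 ± 1.71 in WT-emiRFP mES cells, 0.219 ± 0.0807 at 96 h and 1.32 ± 0.118 at 144 h. Thus both type IV pairs kept their ratios within a narrower range than the type I pair over the 6 time points of WT-emiRFP cells, where the Col4a5 to Col4a6 ratio was highest at 0 h (6.65 ± 2.51, with as few as 3 counts of Col4a6).

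**Figure D3:**
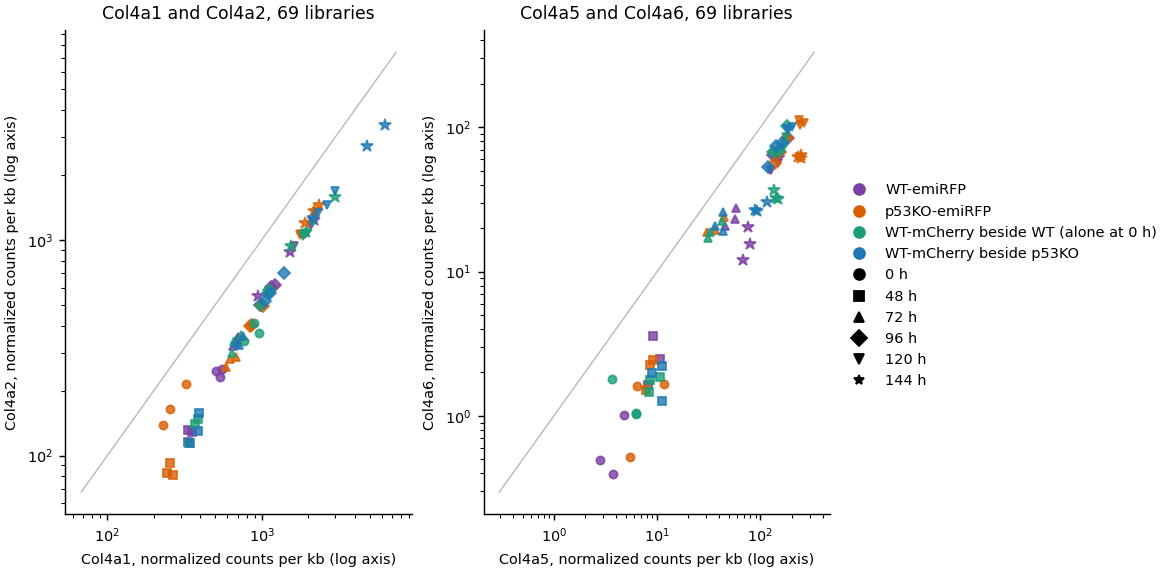
Normalized counts per kb of Col4a2 against Col4a1 (left) and of Col4a6 against Col4a5 (right) in 69 libraries, both axes on log scales, with colour for the population, shape for the hour after aggregation and a grey line of equal levels. The points of each pair lie along 1 band below the line of equal levels, with r over 23 condition means of 0.990 and 0.981.

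Of the 44 genes, 35 had a RefSeq promoter entry, in 38 windows. Col1a1, Col2a1, Col4a3, Col5a2, Col9a3, Col12a1, Col14a1, Col22a1 and Col26a1 had none. GGGCGG was in 60.5% of the collagen windows and in 35.7% of all windows, CCAAT in 34.2% and 37.4%, and TATAAA in 13.2% and 13.6%, each on both strands. The median GC content was 59.8% in the collagen windows and 52.7% in all windows. A p53 half-site was in 4 collagen windows (10.5%, against 8.36% of all windows), those of Col6a6, Col9a2, Col17a1 and Col20a1, and a full site of 2 half-sites was in none. In p53KO cells Col20a1 was called lower at 3 times, Col17a1 at 2, and Col6a6 lower at 2 and higher at 1. Col6a4, called lower at all 6 times, had no half-site. Whether p53 acts at any of these windows was not tested. The window of Col9a2, which was lower in p53KO cells at 5 of 6 times, is shown with its 2 overlapping half-site matches in capitals, the first 226 bases before the start.
Col9a2, chr4:121039316-121039615, plus strand: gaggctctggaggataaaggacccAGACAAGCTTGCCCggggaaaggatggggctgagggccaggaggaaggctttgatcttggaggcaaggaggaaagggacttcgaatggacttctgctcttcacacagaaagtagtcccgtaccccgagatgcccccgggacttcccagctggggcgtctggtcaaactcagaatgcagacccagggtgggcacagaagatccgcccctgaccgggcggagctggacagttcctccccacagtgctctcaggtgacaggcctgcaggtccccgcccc

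The comparison of p53KO-emiRFP with WT-emiRFP cells asked how collagen expression differed in the cells without p53 at each time. From 48 h on the 2 lines came from different gastruloids, seeded in different numbers. The genotype of the cells and the gastruloid they grew in therefore cannot be told apart. At 0 h, 8 of 38 collagen genes passed the test (4 higher and 4 lower, with 6.14% of all genes called, 1.97% higher and 4.16% lower). At 48 h, 10 of 39 passed (4 higher and 6 lower, against 22.1% of all genes, 10.3% higher and 11.7% lower), at 72 h, 13 of 37 (2 higher and 11 lower, 29.1%), and at 96 h, 16 of 39 (2 higher and 14 lower, 23.3%). At 120 h, 27 of 39 passed (17 higher and 10 lower, against 51% of all genes, 27.3% higher and 23.7% lower), and at 144 h, 28 of 41 (16 higher and 12 lower, against 65.4%, 33.2% higher and 32.2% lower). At 72 and 96 h the changes were thus mostly falls, where 15.7% and 13.8% of all genes were called lower and 13.4% and 9.45% higher. Without replicate 2 or 3 the count at 0 h was 3 or 5, without replicates 1, 2 and 3 that at 48 h was 2, 6 and 6, without replicate 1 or 2 that at 72 h was 5 or 8, and without replicate 1 that at 96 h was 7. Markers moved at 96 h too, and their part was not tested. In p53KO-emiRFP cells 3 of 6 tested somite and sclerotome markers were lower and 0 higher (sums of 3260 to 4391 normalized counts against 11242 to 13078), 6 of 7 presomitic markers lower (30461 to 39895 against 47268 to 59428), 5 of 6 pluripotency markers lower (20117 to 23130 against 32809 to 36779), and 3 of 6 tested parietal endoderm markers lower (3197 to 3768 against 5636 to 6940). Of 6 notochord markers 3 were higher and 0 lower (39980 to 46729 against 21943 to 27382), and of 7 tested endothelial markers 1 was higher and 3 lower (976 to 1084 against 1443 to 1819). At 72 h the sums were lower for neural crest (1291 to 1385 against 1768 to 2098) and endothelium (1547 to 1611 against 1880 to 2072). They were also lower for neural progenitors (3681 to 4169 against 4180 to 4528) and notochord (41649 to 45879 against 46219 to 59267). They were higher for somite and sclerotome (487 to 578 against 324 to 391) and endoderm (12177 to 12666 against 10021 to 11286), with their part not tested. The WT-emiRFP group of each time point also serves in the comparison of the 2 WT clones given further on.

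Col18a1 and Col9a2 were called lower in p53KO cells at 4 and 5 of the 6 times. At 144 h Col18a1 had 20617, 23678 and 22085 normalized counts in p53KO-emiRFP cells, against 44644, 43388 and 42929 in WT-emiRFP libraries, and the groups did not overlap. It fell by 0.98 ± 0.06 on the log2 scale (adjusted p = 1.13e-08) by 0.94 ± 0.09 at 120 h, by 0.33 ± 0.04 at 96 h and by 0.17 ± 0.05 at 48 h. At 48 h the call was lost without replicate 1 (adjusted p = 0.09) or replicate 3 (0.14). Col15a1 had 68.9, 65.1 and 65.9 normalized counts against 262, 271 and 217 at 144 h, and fell by 1.90 ± 0.16. Col9a2 had 1150, 1190 and 1285 normalized counts against 4375, 4177 and 3617 at 144 h, a fall of 1.75 ± 0.08 (adjusted p = 8.65e-10). At 120 h Col9a2 had 367, 350 and 346 against 1391, 1643 and 1545, a fall of 2.11 ± 0.08. The fall of Col9a2 at 0 h (0.52 ± 0.13, adjusted p = 0.034) was lost without any 1 of the replicates (0.063, 0.15 and 0.11), and that at 96 h (0.72 ± 0.14) without replicate 1 (0.054). Its partners in type IX collagen did not pass the test at 144 h, with -0.16 ± 0.16 for Col9a1 and -0.28 ± 0.16 for Col9a3. The reading of Col9a3 is uncertain, since it shares 234 exon bases with Tcfl5 on the opposite strand and the strand setting of the counts is not given in the sources used here.

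The type VI chains did not move as a class. Col6a4 was lower in p53KO cells at all 6 times, by 0.99 ± 0.19 at 0 h, 1.75 ± 0.15 at 48 h and 2.56 ± 0.25 at 144 h, and it was the only collagen gene called at every time. Its 0 h call was lost without replicate 2 (adjusted p = 0.067) or replicate 3 (0.086). Col6a4 also differed between the 2 WT clones, higher in WT-mCherry than in WT-emiRFP cells at 0 and 48 h. Col6a5 turned: it was higher at 48 h (0.89 ± 0.15, lost without replicate 1 at an adjusted p of 0.0503) and lower at 96 h (-0.99 ± 0.15), 120 h (-2.30 ± 0.13) and 144 h (-2.76 ± 0.15). At 144 h the p53KO-emiRFP libraries had 93.9, 113 and 130 normalized counts of Col6a5, and the WT-emiRFP libraries 754, 678 and 849. The classical partners of type VI collagen, Col6a1 (0.04 ± 0.21) and Col6a2 (-0.23 ± 0.19), did not pass the test at 144 h. Of 6 type VI genes tested then, 0 were called higher and 3 lower, against 33.2% and 32.2% of all genes, with a median of -1.47.

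Of 11 fibrillar collagen genes, 7 rose and 3 fell in p53KO cells at 144 h (33.2% and 32.2% of all genes), with a median log2 change of 1.02 against 0.01 for all genes. Col2a1 had 15781, 13199 and 14304 normalized counts in p53KO-emiRFP libraries and 6242, 5046 and 4789 in WT-emiRFP libraries, a rise of 1.43 ± 0.15 (adjusted p = 1.16e-06). At 120 h it was not called (0.03 ± 0.12, adjusted p = 0.85). Col11a1 (1.74 ± 0.12), Col11a2 (1.85 ± 0.24) and Col5a1 (1.02 ± 0.12), chains that nucleate or thin fibrils, rose at 144 h, and Col1a1 rose by 0.83 ± 0.22. Col3a1 fell at 144 h by 0.68 ± 0.20 (514, 508 and 453 against 805, 1039 and 529), and this call was lost without replicate 1 (adjusted p = 0.054) or replicate 2 (0.1). Over the 6 times Col3a1 was called higher in p53KO cells at 3 and lower at 2. Col5a2 fell by 0.84 ± 0.21, a call lost without replicate 3 (adjusted p = 0.068). The type I chain Col1a2 was not called at 144 h (-0.36 ± 0.29, adjusted p = 0.28), after a fall of 0.93 ± 0.20 at 120 h.

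Among FACIT collagens, Col12a1 had 396, 485 and 489 normalized counts in p53KO-emiRFP cells at 144 h and 104, 72.2 and 93.9 in WT-emiRFP cells, a rise of 2.33 ± 0.17 (adjusted p = 4.07e-08). It had already risen by 2.11 ± 0.18 at 120 h, to 714, 583 and 776 against 149, 140 and 190. Earlier, Col22a1 fell by 1.42 ± 0.16 at 72 h, and Col20a1 fell by 0.98 ± 0.18 at 72 h and 1.10 ± 0.18 at 96 h. Over the 6 times Col22a1 was called lower at 3 and higher at 2. Its highest condition mean (562 normalized counts) was that of p53KO-emiRFP cells at 144 h. Of the transmembrane collagens, Col17a1, a hemidesmosome component, fell by 1.83 ± 0.15 at 96 h and 1.55 ± 0.12 at 144 h. Col25a1 fell by 1.00 ± 0.14 at 96 h and rose by 1.34 ± 0.21 at 120 h. Col26a1 also changed direction, with 1216, 1314 and 1665 normalized counts against 2823, 2063 and 2947 at 120 h (a fall of 0.90 ± 0.17) and 4713, 3047 and 4175 against 1094, 823 and 857 at 144 h (a rise of 2.10 ± 0.28). Col8a2, a chain of type VIII collagen, was called higher from 72 to 144 h, with its largest difference at 96 h (2.21 ± 0.22). Its other calls were lost without replicate 1 (adjusted p = 0.068 at 72 h, 0.12 at 120 h and 0.13 at 144 h) and, at 120 and 144 h, without replicate 3 (0.075 and 0.14). The anchoring fibril gene Col7a1 fell by 0.30 ± 0.12 at 144 h, a call lost without replicate 1 (adjusted p = 0.11) or replicate 2 (0.25).

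In the type IV class 2 of 5 tested genes rose and 0 fell at 144 h, where 33.2% and 32.2% of all genes did so. Col4a5 had 1670, 1647 and 1556 normalized counts in p53KO-emiRFP libraries of 144 h and 507, 531 and 455 in WT-emiRFP libraries, a rise of 1.71 ± 0.10. Col4a6 rose by 1.96 ± 0.15, with 487, 513 and 496 against 162, 124 and 96.5. Both had also risen at 120 h (0.89 ± 0.08 and 1.03 ± 0.08). Col4a1, with 17667, 14336 and 16225 normalized counts against 11319, 16218 and 7067, was not called (0.48 ± 0.35, adjusted p = 0.24), and neither was Col4a2 (0.59 ± 0.32, 0.12). With the replicate number as a block both passed the test as higher (adjusted p = 0.017 and 0.0059). The difference between the pairs was not tested. In mES cells Col4a1 was lower in p53KO cells (1713, 1898 and 2411 against 3757, 3995 and 4105, a fall of 0.98 ± 0.12). The 2 WT clones differed too, with Col4a1 and Col4a2 called higher in WT-mCherry than in WT-emiRFP mES cells. The 6 type IV genes summed to 9029 ± 864 normalized counts in WT-mCherry mES cells (SD, 3 libraries). The sums were 5603 ± 208 in WT-emiRFP and 3225 ± 641 in p53KO-emiRFP mES cells. At 48 h Col4a1 (-0.42 ± 0.06) and Col4a2 (-0.55 ± 0.11) were both lower, and the call of Col4a2 was lost without replicate 1 (adjusted p = 0.09).

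**Figure D4:**
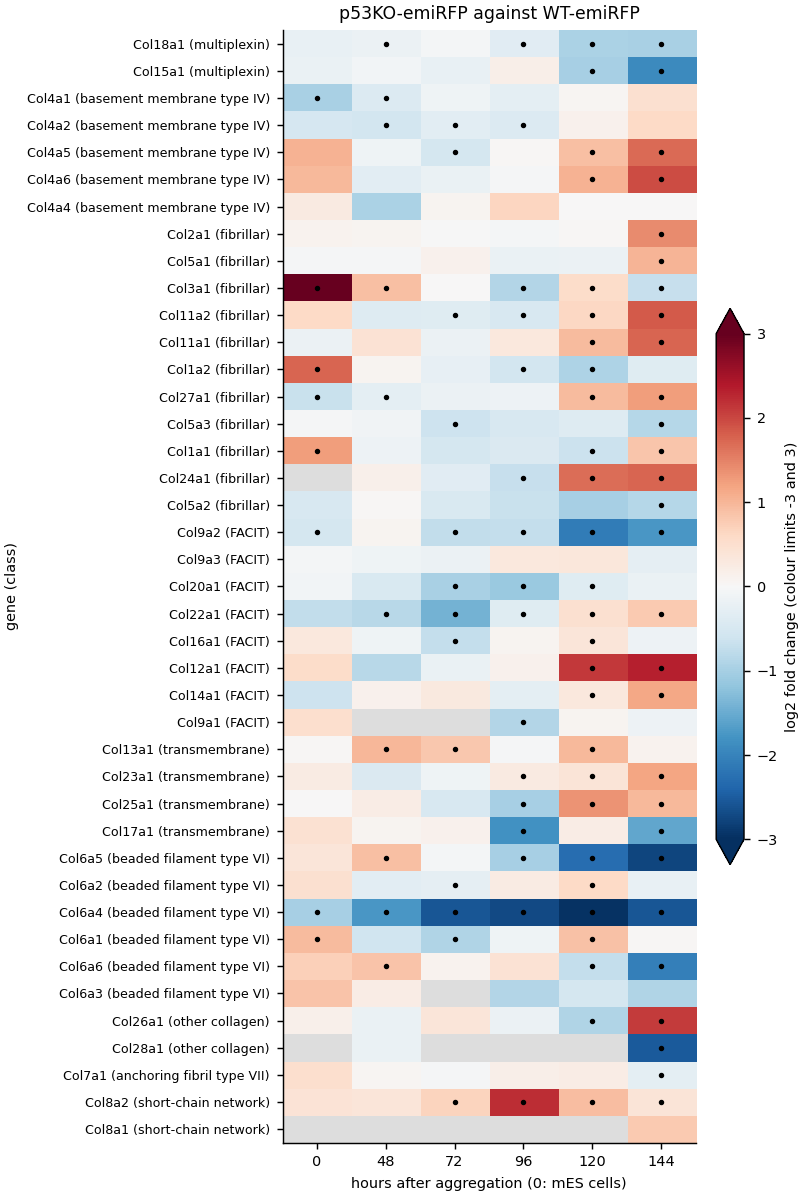
Heat map of the log2 fold change of p53KO-emiRFP against WT-emiRFP cells (colour, limits -3 and 3) for each tested collagen gene (y axis, with its class) at each hour after aggregation (x axis), with dots at an adjusted p under 0.05 and grey where a gene was not tested. Most dots at 72 and 96 h lie on blue squares (11 of 13 and 14 of 16 calls are falls), and 7 of 11 fibrillar genes have red squares with dots at 144 h.

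Genes that act on collagens are given for p53KO-emiRFP cells at 144 h, when 33.2% of all genes were called higher and 32.2% lower, with a median of 0.01. Of 20 folding enzymes, 11 rose and 2 fell (median 0.28), with Fkbp10 (1.64 ± 0.11), a chaperone of procollagen, and P3h2 (1.49 ± 0.18), a prolyl 3-hydroxylase, higher and Crtap (-0.72 ± 0.07) and P3h1 (-0.41 ± 0.07) lower. Of 13 processing and cross-linking genes, 7 rose and 4 fell (0.67), with Bmp1 (1.83 ± 0.15) and the lysyl oxidase Loxl2 (1.34 ± 0.10) higher and the N-proteinase Adamts14 (-1.35 ± 0.09) and Pcolce2 (-1.14 ± 0.11) lower. Of 8 receptors, 4 rose and 1 fell, with the integrin chain Itga11 (1.82 ± 0.20) and the endocytic receptor Mrc2 (1.54 ± 0.14) higher and the kinase Ddr2 (-2.36 ± 0.23) lower. Of 10 proteases and inhibitors, 6 rose and 2 fell, with Mmp16 (2.37 ± 0.21) and Timp2 (1.81 ± 0.14) higher and Timp1 (-1.50 ± 0.11) and Mmp9 (-1.41 ± 0.11) lower. Of 10 transcription factors, 5 rose and 0 fell, with Sox6 at 1.86 ± 0.16 and Twist1 at 1.57 ± 0.16. Of 17 basement membrane partners, 1 rose, Lamb2 (0.28 ± 0.06), and 12 fell (median -0.71), with the laminin chain gene Lama3 at -2.36 ± 0.14.

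Markers of cell types moved with these differences at 144 h, and their part in the collagen results was not tested. The 9 somite and sclerotome markers were all called higher in p53KO-emiRFP cells and summed to 22366 to 30305 normalized counts against 4021 to 5349. The 7 presomitic markers were all called higher (13062 to 14157 against 1873 to 2522), as were 3 of 5 tested notochord markers (3025 to 3182 against 248 to 431). The 6 pluripotency markers were all lower (13235 to 19939 against 82415 to 94266). Of 8 endothelial markers 6 were lower (2046 to 2448 against 8055 to 8490), and of 9 tested markers of extraembryonic and gut endoderm 6 were lower (5260 to 6695 against 12428 to 17017). Of 7 parietal endoderm markers 2 were higher and 3 lower (5434 to 6189 against 1868 to 3161), of 5 tested neural crest markers 2 were higher and 1 lower (4708 to 6011 against 1592 to 1761), and of 4 tested myogenic markers 2 were higher and 1 lower (3681 to 4880 against 781 to 1410). Of 6 neural progenitor markers 3 were higher and 1 lower, while their sum was lower (13438 to 15204 against 16607 to 19513). At 144 h the only one of these markers at 0 was Foxd3 of the neural crest list, in p53KO-emiRFP cells, while Ttr and Afp of the endoderm list were at 0 in p53KO-emiRFP cells at 120 h. At 120 h the 7 presomitic markers were also all called higher (45836 to 56006 against 6196 to 8056), as were 2 of 5 tested notochord markers (10701 to 12669 against 1684 to 2122), while all 6 pluripotency markers (11944 to 12699 against 61935 to 71093), 5 of 8 endothelial markers (946 to 1310 against 5613 to 5885) and 6 of 9 tested endoderm markers (4613 to 5012 against 7209 to 9961) were lower. Of 9 somite and sclerotome markers 2 were higher and 2 lower then (20342 to 28862 against 13366 to 17673). Of 7 parietal endoderm markers 3 were higher and 2 lower (5843 to 6842 against 3914 to 4429), and of 6 neural progenitor markers 1 was higher and 1 lower (6759 to 7618 against 12773 to 14878).

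The difference between p53KO-emiRFP and WT-emiRFP cells itself changed between 120 and 144 h for 20 of 41 collagen genes (11 upwards and 9 downwards, with 16.9% of all genes called). The largest shift upwards among the named genes was that of Col26a1, 3.01 ± 0.25 (adjusted p = 1.45e-13), and Col1a1 (1.47 ± 0.27), Col2a1 (1.40 ± 0.19) and Col11a2 (1.23 ± 0.25) also shifted upwards. Col17a1 (-1.78 ± 0.18), Col3a1 (-1.24 ± 0.31), Col15a1 (-0.90 ± 0.30) and Col13a1 (-0.86 ± 0.19) shifted downwards. Without replicate 1 the count was 10, and without replicate 2 it was 10. The shift of Col3a1 was then lost without replicate 2 (adjusted p = 0.16), that of Col13a1 without replicate 2 (0.074), and that of Col15a1 without replicate 1 (0.24) or 2 (0.28).

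The second comparison asked whether WT-mCherry cells express collagens differently when their neighbours lack p53. At 48 h 0 of 39 collagen genes were called (0.0736% of all genes, with 3 collagen genes at an unadjusted p under 0.05 and 0 called by DESeq2), and at 72 h 0 of 37 (0.559%, with 5 at an unadjusted p under 0.05 and 1 called by DESeq2). With the replicate number as a block, 1 was called at 72 h (2.27% of all genes). At 96 h, 2 of 39 were called (1 higher and 1 lower, against 3.92% of all genes, 2.87% higher and 1.05% lower), 8 with the block (20.8% of all genes), and 0, 0 and 1 without replicates 1, 2 and 3. Of these 2, Col18a1 fell by 0.16 ± 0.04 (adjusted p = 0.045), a call lost without any 1 of the 3 replicates (0.41, 0.2 and 0.11). At 120 h, 11 of 39 were called (5 higher and 6 lower, against 5.94% of all genes, 3.41% higher and 2.52% lower), but 20 with the block (20.2% of all genes), 1 without replicate 1, 6 without replicate 2 and 2 without replicate 3. At 144 h, 23 of 41 were called (8 higher and 15 lower, against 25.6% of all genes, 10.1% higher and 15.5% lower).

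At 144 h the interstitial fibrillar collagens were lower in WT-mCherry cells beside p53KO cells. Of 11 fibrillar genes 7 fell and 0 rose (15.5% and 10.1% of all genes), with a median log2 change of -0.60 against -0.03 for all genes. Col1a2 had 479, 238 and 334 normalized counts beside p53KO cells and 1636, 902 and 1970 beside WT cells, a fall of 2.10 ± 0.28 (adjusted p = 2.59e-04) without overlap. Col3a1 had 560, 577 and 512 against 1575, 1871 and 2399, a fall of 1.83 ± 0.20 (adjusted p = 8.03e-05). Col1a1 had 238, 159 and 169 against 588, 360 and 699, a fall of 1.54 ± 0.23. Both chains of type I collagen and that of type III thus stood lower in every WT-mCherry library of 144 h with p53KO neighbours. Col2a1 fell by 0.79 ± 0.14 (7676, 4801 and 6089 against 10932, 9492 and 11790), Col5a1 by 0.60 ± 0.12 and Col11a1 by 0.54 ± 0.12, the last lost without replicate 3 (adjusted p = 0.078). Col5a2 fell by 0.75 ± 0.17, lost without replicate 2 (0.092) or 3 (0.062). Col25a1 (-1.43 ± 0.28), Col12a1 (-1.19 ± 0.17) and Col15a1 (-0.84 ± 0.15) fell as well.

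The main type IV pair and the type IX genes Col9a2 and Col9a3 were among those higher beside p53KO cells at 144 h. Col9a2 had 5105, 4918 and 4760 normalized counts against 3417, 3861 and 3228, a rise of 0.49 ± 0.08 (adjusted p = 7.96e-04), and Col20a1 rose by 0.80 ± 0.13. Col9a3 rose by 0.82 ± 0.15, with the uncertainty of its reading given above. Per kb, Col9a2 stood at 62.1 ± 2.23 times the level of the third chain, Col9a1, beside p53KO cells and at 46.9 ± 5.69 times beside WT cells. Col4a1 had 35844, 46875 and 16053 against 14516, 22184 and 11489, with overlap between the groups but a higher value beside p53KO cells in each of the 3 same-numbered pairs. Its rise of 1.03 ± 0.35 (adjusted p = 0.043) was lost without replicate 1 (0.28), without replicate 2 (0.072) and with only the 2 compared groups in the fit (0.065). Col4a2 rose by 1.03 ± 0.32 (adjusted p = 0.031), which was lost without replicate 1 (0.24) or 2 (0.066). Col4a5 fell by 0.50 ± 0.10. Col18a1 had 37447, 37121 and 34909 against 33996, 38675 and 35272 and was not called (0.02 ± 0.06, adjusted p = 0.85).

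At 120 h the type I chains were already lower beside p53KO cells, Col1a2 by 1.05 ± 0.19 (230, 247 and 292 against 513, 384 and 687) and Col1a1 by 0.68 ± 0.17. The call of Col1a2 was lost without replicate 1 (adjusted p = 0.16), and that of Col1a1 without replicate 1 (0.22) or 3 (0.2). Col9a2 fell at 120 h by 0.51 ± 0.07 (1105, 1112 and 1058 against 1454, 1675 and 1549, adjusted p = 0.00138), opposite to its rise at 144 h, and was called in each fit that left out 1 replicate. Col2a1 fell by 0.45 ± 0.12, lost without replicate 1 (0.28) or 3 (0.3). Col13a1 rose by 0.42 ± 0.08, lost without replicate 1 (0.11) or 3 (0.12), while Col14a1 (0.44 ± 0.11), Col4a2 (0.43 ± 0.11) and Col4a6 (0.33 ± 0.08) rose but lost their calls without any 1 of the 3 replicates. Markers also moved at 120 h, and their part in these results was not tested: of 7 presomitic markers 7 were higher beside p53KO cells (21570 to 27087 normalized counts against 10184 to 13506), of 5 tested notochord markers 1 was higher (3836 to 5245 against 2272 to 2710), of 9 somite and sclerotome markers 1 was higher and 2 lower (21656 to 27621 against 14719 to 19549), and of 8 endothelial markers 1 was higher and 3 lower (3018 to 3474 against 3883 to 4746). Of 6 pluripotency markers 2 were lower (42793 to 44867 against 49320 to 62193), of 6 neural progenitor markers 1 was lower (9980 to 12319 against 13177 to 14225), and of 7 parietal endoderm markers 1 was higher (5345 to 6958 against 4561 to 4946). The neighbour difference changed between 120 and 144 h for 11 of 41 genes (2 upwards and 9 downwards, 7.62% of all genes). Col9a2 shifted upwards by 1.01 ± 0.15, and Col14a1 (-1.80 ± 0.25), Col12a1 (-1.62 ± 0.30) and Col3a1 (-1.56 ± 0.30) shifted downwards. The count was 9, 6 and 6 without replicates 1, 2 and 3.

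**Figure D5:**
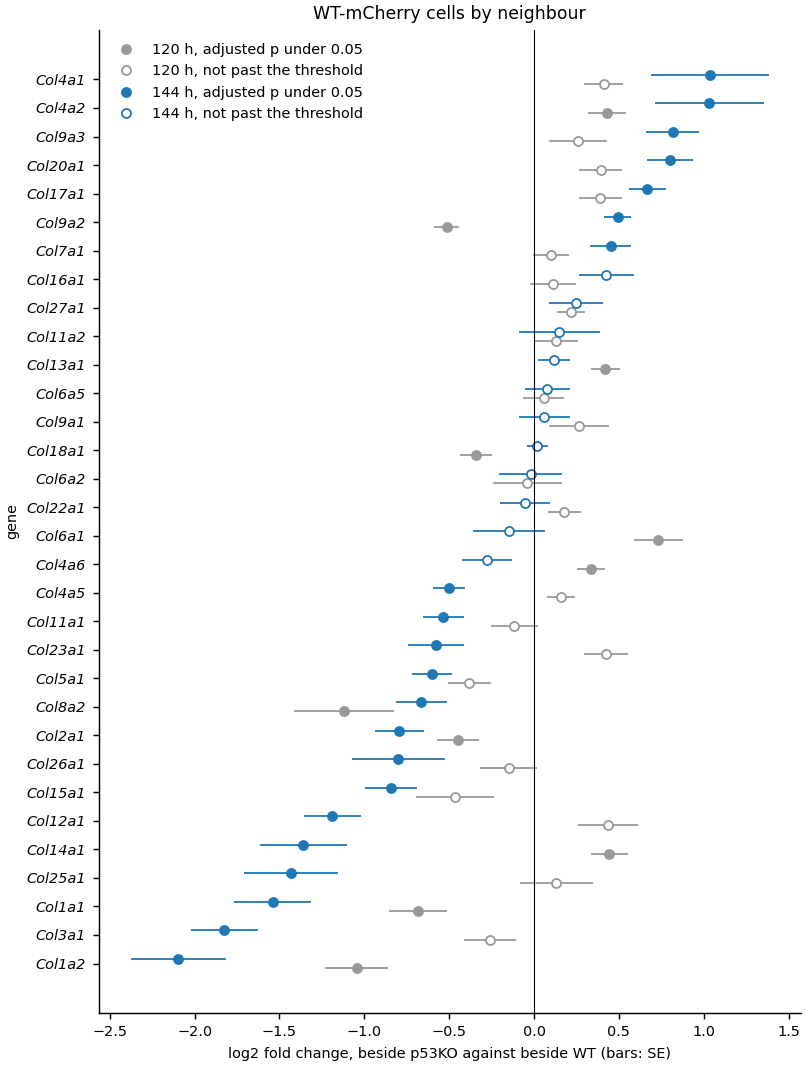
Log2 fold change of WT-mCherry cells beside p53KO-emiRFP against beside WT-emiRFP cells (x axis, bars show the SE) for each tested collagen gene with at least 100 normalized counts (y axis), at 120 h in grey and 144 h in blue, with filled points at an adjusted p under 0.05. Col1a2, Col3a1 and Col1a1 lie lowest at 144 h, and Col9a2 lies at -0.51 at 120 h and at 0.49 at 144 h.

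H2bc14, a histone H2B gene, stood at 4934 to 10386 normalized counts in the emiRFP libraries of the gastruloids and at 8.21 or less in WT-mCherry mES cells, so that its count in sorted WT-mCherry cells was taken as a measure of RNA from emiRFP cells. In WT-mCherry libraries of 144 h it reached 16.9%, 2.39% and 9.23% of the emiRFP library with the same number beside p53KO cells, and 2.12%, 0.191% and 1.70% beside WT cells. At 120 h it was 7.46%, 3.01% and 6.66%, against 2.11%, 1.64% and 1.16%. With emiRFP RNA subtracted in proportion, 25 of 41 collagen genes were called at 144 h, where 33.6% of all genes then were, and 11 of 39 at 120 h, where 5.16% were. The library beside p53KO cells with the lowest share, replicate 2, had 238 normalized counts of Col1a2 and 46875 of Col4a1, the lowest and the highest of its group. Beside WT cells, too, replicate 2 was the lowest for Col1a2 and the highest for Col4a1. For Col3a1, which was lower beside p53KO cells, replicate 2 was the highest of that group. What set these libraries apart was not tested. Of 9 tested endoderm markers 3 were higher and 0 lower beside p53KO cells at 144 h (sums of 11610 to 23308 against 9678 to 15430), and of 7 parietal endoderm markers 2 were higher (3256 to 5748 against 3189 to 4364). Of 9 somite and sclerotome markers 1 was higher and 5 lower (4848 to 10203 against 7563 to 11051), and of 4 tested myogenic markers 2 were lower (947 to 1924 against 2027 to 3629). Of 6 neural progenitor markers 4 were lower and 0 higher (13831 to 17173 against 18099 to 20135), of 5 tested notochord markers 1 was higher (757 to 977 against 389 to 551), and of 8 endothelial markers 1 was higher and 3 lower (6546 to 7594 against 6142 to 6740). Of 7 presomitic markers 5 were higher and 1 lower (3064 to 3897 against 3528 to 3888). Their part in the collagen results was not tested, and none of these markers was at 0.

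Pathway genes beside p53KO cells at 144 h were counted in the same way, against 10.1% of all genes called higher and 15.5% lower, with a median of -0.03. Of 17 basement membrane partners 7 rose and 0 fell (median 0.33), whereas of 13 processing and cross-linking genes 2 rose and 7 fell (-0.44). Of 10 proteases and inhibitors 0 rose and 5 fell, of 8 receptors 0 rose and 3 fell, of 20 folding enzymes 3 rose and 4 fell, and of 10 transcription factors 0 rose and 4 fell.

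The 2 WT clones grown together in WT + WT gastruloids give the difference in collagen expression between lines with intact Trp53. At 0 h, 9 of 38 collagen genes differed (7 higher and 2 lower in WT-mCherry cells, with 11.1% of all genes called, 4.51% higher and 6.55% lower), at 48 h 5 of 39 (8.9%), at 72 h 6 of 37 (7.64%), at 96 h 1 of 39 (2.15%), at 120 h 1 of 39 (1.22%) and at 144 h 25 of 41 (19 higher and 6 lower, against 23.8%, 13% higher and 10.8% lower). With the replicate number as a block the 48, 72, 96 and 120 h counts were 12, 13, 11 and 7, and the shares of all genes rose as well, to 28.9%, 16.2%, 15.9% and 10.8%. Without replicates 1, 2 and 3 the 0 h count was 7, 0 and 5, the 48 h count 0, 0 and 4, the 72 h count 0, 0 and 7, the 96 h count 0, 0 and 3, the 120 h count 0, 2 and 0, and the 144 h count 18, 21 and 12. Among the genes called higher in WT-mCherry cells were Col11a2, Col4a1, Col6a4 and Col4a2 at 0 h, and Col6a4 at 48 h. The type I, II and III genes differed at 144 h: Col1a2 was higher in WT-mCherry cells by 1.99 ± 0.28 (1636, 902 and 1970 normalized counts against 483, 347 and 303), Col3a1 by 1.30 ± 0.19 and Col2a1 by 1.00 ± 0.15. Col12a1 (1.34 ± 0.17), Col14a1 (1.28 ± 0.26), Col26a1 (1.28 ± 0.28) and Col4a6 (1.08 ± 0.15) were higher as well. Col5a3 (-1.11 ± 0.16), Col6a5 (-0.65 ± 0.13), Col17a1 (-0.50 ± 0.11, lost without replicate 1 at an adjusted p of 0.1) and Col18a1 (-0.28 ± 0.06, lost without replicate 1 at 0.089 or 3 at 0.053) were lower. Of 9 somite and sclerotome markers 8 were higher and 0 lower in WT-mCherry cells at 144 h (sums of 7563 to 11051 normalized counts against 4021 to 5349), and of 6 pluripotency markers 0 were higher and 5 lower (58548 to 64570 against 82415 to 94266). Of 7 presomitic markers 3 were higher and 0 lower (3528 to 3888 against 1873 to 2522), of 4 tested myogenic markers 2 were higher and 0 lower (2027 to 3629 against 781 to 1410), of 5 tested neural crest markers 1 was higher and 0 lower (2329 to 2730 against 1592 to 1761), and of 8 endothelial markers 1 was higher and 1 lower (6142 to 6740 against 8055 to 8490). Of 6 neural progenitor markers 3 were higher and 0 lower (18099 to 20135 against 16607 to 19513), of 7 parietal endoderm markers 2 were higher and 0 lower (3189 to 4364 against 1868 to 3161), and of 5 tested notochord markers 1 was higher and 0 lower (389 to 551 against 248 to 431). Their part in the clone difference was not tested.

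Since the clone comparison shares its WT-mCherry group with the neighbour comparison and its WT-emiRFP group with the p53KO comparison, their values are given side by side and not correlated. At 144 h Col1a2 was at 1502 ± 547 normalized counts in WT-mCherry cells beside WT cells, 350 ± 121 in WT-mCherry cells beside p53KO cells, 378 ± 94.1 in WT-emiRFP and 293 ± 27.1 in p53KO-emiRFP cells. Col3a1 was at 1948 ± 417, 550 ± 33.8, 791 ± 255 and 492 ± 33.7 in the same order. WT-mCherry cells beside WT cells were thus the highest of the 4 populations for both genes, with all 3 libraries above those of the others. Col2a1 was at 10738 ± 1161, 6188 ± 1440, 5359 ± 776 and 14428 ± 1295, highest in p53KO-emiRFP cells. Col18a1 was at 35981 ± 2418, 36492 ± 1381, 43654 ± 887 and 22127 ± 1531, lowest in p53KO-emiRFP cells.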

How the data were processed

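The authors trimmed the reads with Trim Galore 0.6.7, aligned them to GRCm38.p6 with STAR 2.7.11b and a Gencode annotation, and deposited the counts of uniquely mapped reads per gene, without normalization. The libraries were stranded and poly A selected. Replicate numbers come from the labels, and the study took its RNA samples in 3 separate experiments. Here counts were divided by median-of-ratios size factors over all 69 libraries and tested with edgeR 4.0.16 (quasi-likelihood, R 4.3.3), after filterByExpr by group, with Benjamini-Hochberg adjustment over all genes and a threshold of 0.05. The p53KO, neighbour and clone comparisons were fitted within each time point on all its libraries. Time steps and differences between 120 and 144 h came from 1 fit of 23 groups. The fit was tested on simulated data. Counts per kb used merged exons of Gencode on GRCm38.

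Deviations from the group means correlated above 0.1 between all libraries with the same number in the p53KO comparisons, the neighbour comparisons except 120 h, the clone comparisons of 48, 96, 120 and 144 h, and 3 of 5 time steps. The named genes were up to 4 rises and 4 falls per comparison among called genes with a mean of at least 100 normalized counts and 1 direction in all 3 pairs, plus the chains of heterotrimers and Col7a1, Col12a1, Col15a1, Col17a1 and Col18a1. In other pathway lists up to 2 rises and 2 falls were named. The genes and lists were chosen with earlier results of these data known. Alternatives were TMM, DESeq2 1.42.0, no filter, a replicate block, only the compared groups, all libraries, subtraction of emiRFP RNA by H2bc14, and leaving out each replicate.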

Additional observations from a re-analysis of the deposited data

Results flagged for a closer look

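The difference between p53KO-emiRFP and WT-emiRFP cells changed between 120 and 144 h, by a test of the change itself, in 8 of the named collagen genes. On the log2 scale, the change was 3.01 for Col26a1, 1.47 for Col1a1, 1.40 for Col2a1 and 1.23 for Col11a2. It was -1.78 for Col17a1, -1.24 for Col3a1, -0.90 for Col15a1 and -0.86 for Col13a1.

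The difference of WT-mCherry cells by neighbour changed in the same interval in 6 named genes. The change was 1.01 for Col9a2 and 0.36 for Col18a1. It was -1.80 for Col14a1, -1.62 for Col12a1, -1.56 for Col3a1 and -1.56 for Col25a1. The change of Col18a1 was lost without any 1 of the 3 replicates (adjusted p = 0.051, 0.18 and 0.086), and that of Col25a1 without replicate 3 (0.062).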

How the results depend on the processing

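Of 5842 alternative values of the named genes, 5360 kept their direction and their side of the threshold, 303 lost and 175 gained a call, and 4 reversed. The reversals came with WT-emiRFP cells alone: Col1a1 from 0 to 48 h (0.035), and Col12a1 (-0.20), Col17a1 (-0.14) and Col4a6 (-0.42) from 96 to 120 h. The cause was not tested. Of 212 alternative counts of called collagen genes, 155 were within 1.5 times the reported count. For p53KO cells the other counts were 5 at 0 h with only the 2 groups, and 15 at 0 h and 5 at 48 h with all libraries. For WT-mCherry cells by neighbour they were 1 at 72 h with the block or DESeq2. At 96 h they were 5 without a filter, 8 with the block, 5 with DESeq2, 0 with only the 2 groups, 1 with all libraries and 1 after subtraction. At 120 h they were 20 with the block and 5 with only the 2 groups. For the clones they were 14 at 0 h with all libraries, 12 at 48 h with the block, and 13 with the block and 2 with only the 2 groups at 72 h. At 96 h they were 7 without a filter, 11 with the block and 2 with DESeq2. At 120 h they were 6 without a filter, 7 with the block, 4 with DESeq2, 0 with only the 2 groups and 2 with all libraries. The neighbour change from 120 to 144 h had 17 without a filter.

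Leaving out a replicate gave 33 to 35, 31 to 35, 32 to 33, 27 to 29 and 32 to 36 calls in the 5 time steps. It gave 3 to 10, 2 to 6, 5 to 11, 7 to 17, 20 to 22 and 25 to 29 for p53KO cells at 0 to 144 h. By neighbour it gave 0, 0, 0 to 1, 1 to 6 and 16 to 19 at 48 to 144 h. For the clones it gave 0 to 7, 0 to 4, 0 to 7, 0 to 3, 0 to 2 and 12 to 21, and for the changes between 120 and 144 h 10 to 18 and 6 to 9.

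Same-numbered libraries did not all correlate above 0.1 in the neighbour comparison of 120 h (lowest 0.070), the clone comparisons of 0 h (0.088) and 72 h (0.041) and the steps to 48 h (-0.145) and 96 h (-0.133), so there the numbers may not pair the libraries. The block gave 13 calls for the clones at 0 h and changed no count by over 1.5 times beyond those given. At this depth Col4a3, Col10a1 and Col19a1 stayed under the count filter in every comparison.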
